A study of Arabidopsis thaliana with 4 samples.

Results

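Late embryogenesis abundant (LEA) genes other than dehydrins were examined for binding of LEC1-GFP in Arabidopsis seeds. The set held 10 genes, found by symbol or synonym among 27444 protein-coding genes on chromosomes 1 to 5: LEA4-1, LEA18, LEA4-5, LEA14, ECP63, RAB28, ECP31, EM1, EM6 and M17. LEC1 (LEAFY COTYLEDON1), an NF-YB protein that acts in NF-Y transcription factor complexes, had been tagged with green fluorescent protein. The plants were lec1-1 mutants homozygous for the transgene LEC1:LEC1-GFP:LEC1, in which LEC1 flanking sequences surround the fusion, so both the ChIP and the input chromatin came from cells whose own LEC1 gene carries the lec1-1 mutation. Seeds at the bent cotyledon stage were used whole, so embryo, endosperm and seed coat cannot be told apart. There were 2 biological replicates of chromatin precipitated with an anti-GFP antibody and 2 of input chromatin. No control without the tag is among the samples used here.

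LEA proteins build up in seeds as they mature and dry. Most are very hydrophilic and largely unfolded in solution, and they help to protect enzymes and membranes when water is lost. Many of their genes respond to abscisic acid, the hormone that promotes seed maturation and desiccation tolerance, and LEC1 is required for normal maturation.

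The data were 1 list of 6356 peaks for the whole series. Each peak had a position and a score given by the authors, but no source used here gives the scale of the score. Scores ran from 1.92 to 4.51 with a median of 2.45, and peak widths from 49 to 1649 bp with a median of 249 bp. The list has no values per sample, so no value below has a replicate error, no test between groups was possible and the depth of the libraries is unknown. The order of scores below therefore cannot be set against a spread. Peak positions are on build TAIR10.

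A gene was counted as having a peak when at least 1 bp of a peak lay in the gene or within 1000 bp of either end. Of the 10 LEA genes, 6 had a peak (60%, 26.2 to 87.8%, exact Clopper-Pearson 95% interval). The interval treats the genes as independent random draws, which the genes of a fixed and chosen list are not. Among all protein-coding genes the share was 24.6%. The genes with a peak were LEA4-5, LEA4-1, LEA14, RAB28, ECP63 and LEA18, and those without were EM1, EM6, ECP31 and M17. The median of the highest score per gene was 3.07 over the 6 LEA genes with a peak, against 2.51 over the 6738 protein-coding genes with one. Each of the 6 stood above that median of 2.51, LEA18 only just, at 2.53. The set was chosen with results of these data known, so the count describes these 10 genes and was not tested.

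**Figure D1:**
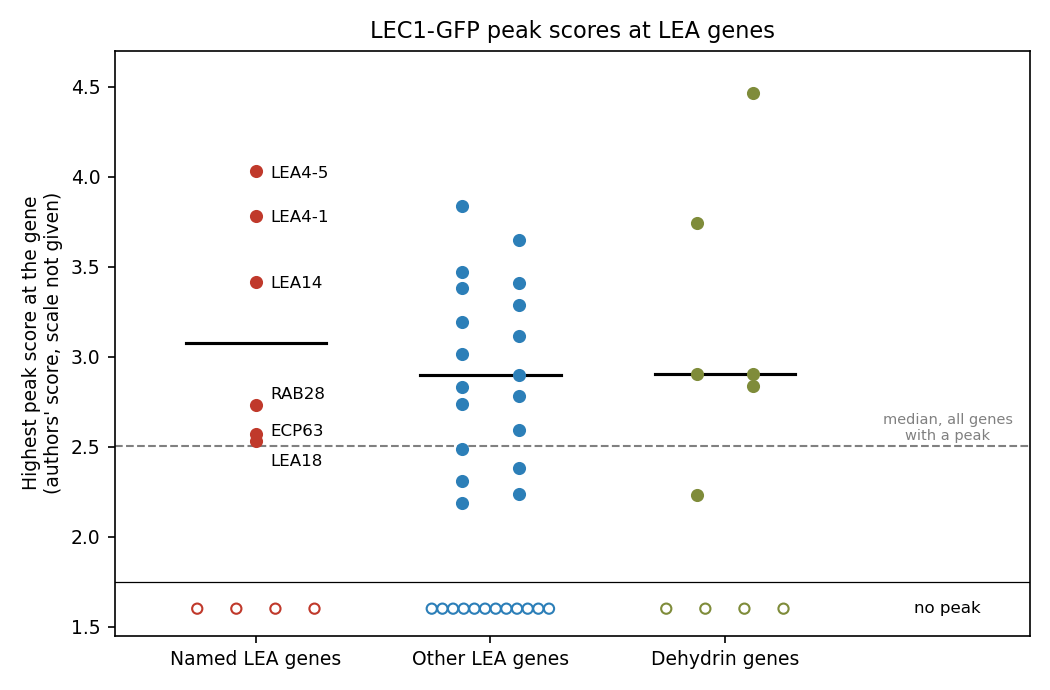
Highest score of a LEC1-GFP peak (authors' score, vertical axis) at each of the 10 named LEA genes, 31 other LEA genes and 10 dehydrin genes; filled points are genes with a peak, open points below the line are genes without one, black bars are medians and the dashed line is the median of all protein-coding genes with a peak (2.51). LEA4-5, LEA4-1 and LEA14 lie above 3.4, and RAB28, ECP63 and LEA18 lie between 2.5 and 2.8.

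The LEA4 genes, LEA4-5, LEA4-1 and LEA18 (also named LEA4-2), encode disordered proteins of the LEA_1 family, and all 3 had a peak. LEA4-5, a gene known to respond to water deficit outside the seed as well, had the highest score of the 10 genes. Its peak (chromosome 5, 2090301 to 2090749) scored 4.03 and was the 25th highest of the 6356 peaks. The peak of LEA4-1 (chromosome 1, 11774101 to 11774549) scored 3.78 and was the 72nd highest. The peak of LEA18 (chromosome 2, 14863351 to 14863649) scored 2.53 and ranked 2763rd. Thus the family held the highest 2 and the lowest of the 6 scores.

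LEA14 encodes a protein of the LEA_2 family, which differs from most LEA proteins in having a stable fold. It was the single gene of the set with 2 peaks, and they lay at opposite ends of the gene. The stronger peak (chromosome 1, 173301 to 173749) scored 3.42, ranked 349th and lay outside the gene, within 500 bp of its end. The weaker peak (chromosome 1, 171351 to 171749) scored 3.14, ranked 755th and crossed the other end. Among all protein-coding genes with a peak, 16.5% had 2 or more.

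ECP63, which encodes a LEA_4 protein first described in carrot embryogenic cells, had a peak with a score of 2.57 (chromosome 2, 15358601 to 15358849; rank 2593). RAB28 and ECP31 both encode seed maturation proteins of the SMP family. RAB28, named for its response to abscisic acid, had a peak with a score of 2.73 (chromosome 1, 752001 to 752299; rank 1887), whereas ECP31 had none. Both peaks scored above the median of the list without being near its top.

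EM1 and EM6 encode the LEA_5 proteins, very hydrophilic proteins of the last phase of seed maturation whose genes are known targets of the regulators ABI3 and ABI5. Neither had a peak within 2000 bp. The peak nearest to EM1 (chromosome 3, 19218901 to 19219299; score 3.49) lay between 2000 and 5000 bp away and was within 1000 bp of G4, the gene for chlorophyll synthase that neighbours EM1, and of SAC8. The peak nearest to EM6 (chromosome 2, 16771951 to 16771999; score 2.02) lay between 5000 and 10000 bp away, at CZF1.

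M17 had no peak within 2000 bp either, and the nearest one (chromosome 2, 17210751 to 17211049; score 2.85) lay between 2000 and 5000 bp away, in reach of its neighbour M10 and overlapping SSL2, the gene next to M10. ECP31 had no peak within 10000 bp, as was the case for 31.1% of protein-coding genes. The missing peaks say that the authors' list holds none there. They do not show that LEC1-GFP is absent, since the threshold of the list and the depth are not known. The stage was a single one, so binding earlier or later in maturation was not measured.

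Wide peaks in the list tended to have higher scores, with medians of 2.53 for peaks of 249 bp and 3.12 for peaks of 449 bp, so the LEA peaks were set against peaks of equal width. Of the 7 LEA peaks, 7 scored above the median of all peaks and 6 above the median of the peaks of their own width. The peak of LEA4-5 had the 2nd highest score of the 284 peaks of 449 bp. The peak of LEA4-1, of the same width, was the 16th highest of them, and the stronger LEA14 peak the 67th. The weaker LEA14 peak was the 143rd of 412 peaks of 399 bp (median 2.99). The peaks of RAB28 and LEA18 were 299 bp wide and took places 347 and 530 among 738 peaks (median 2.70), so LEA18 scored below that median. The peak of ECP63 took place 383 among 903 peaks of 249 bp. For RAB28 and ECP63 the score was therefore close to that of an average peak of the same width, whereas LEA4-5 and LEA4-1 scored well above it.

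**Figure D2:**
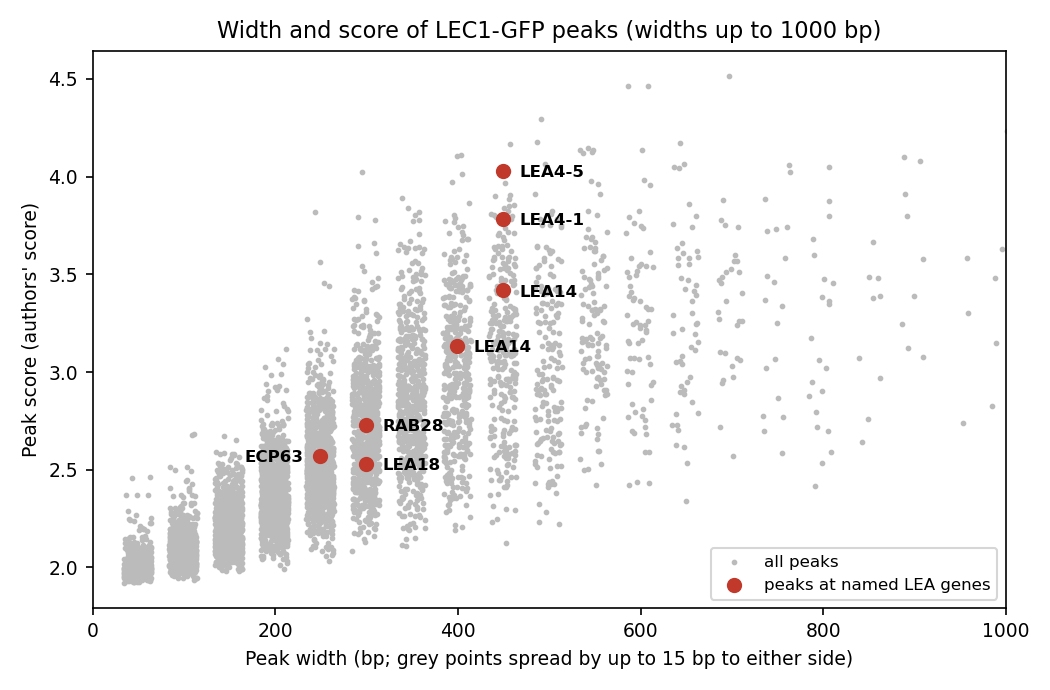
Score against width in bp for the LEC1-GFP peaks (grey, spread sideways so that points do not hide each other) with the 7 peaks at named LEA genes in red; 10 peaks wider than 1000 bp are not drawn. LEA4-5 and LEA4-1 lie near the top of the peaks of 449 bp, RAB28 and ECP63 lie near the middle of theirs, and LEA18 lies below the median of its width.

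Most peaks at the 10 named LEA genes sat at a gene end. Of the 7 peaks, 6 crossed an end of the LEA gene, 1 lay wholly outside (the stronger peak of LEA14) and 0 lay wholly inside (85.7%, 14.3% and 0%). Over all 8013 pairs of a protein-coding gene and a peak, 29.5% crossed an end, 54.0% lay outside within 1000 bp and 16.5% lay inside. At 31 other LEA genes, 11 of 22 pairs (50%) crossed an end and 10 (45.5%) lay outside. Among pairs with peaks of 249 to 449 bp, the range of widths at the LEA genes, 36.9% crossed an end. Strand is not in the gene table, and the start and the finish of transcription were therefore not told apart. In the order of the chromosome, 3 of the 7 peaks lay at the lower-numbered end and 4 at the higher. With peaks required to touch the gene itself, the same 6 genes kept a peak, whereas the share of all protein-coding genes was 12.5%. This was a description of 7 peaks and was not tested, and gene length was not matched in these comparisons.

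**Figure D3:**
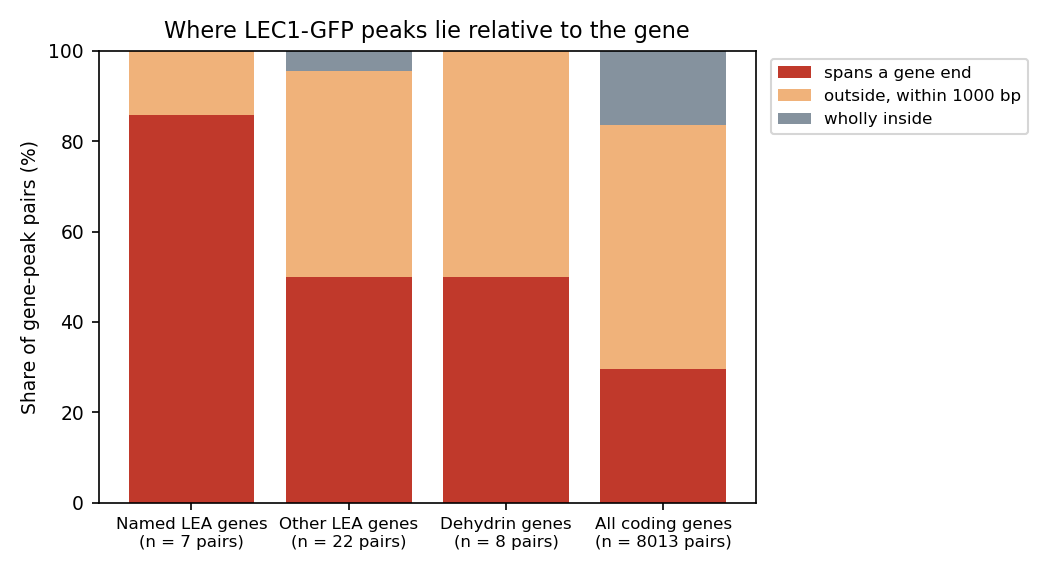
Share of gene-peak pairs (%) in which the LEC1-GFP peak crosses a gene end, lies outside within 1000 bp, or lies wholly inside, for the named LEA genes (7 pairs), other LEA genes (22), dehydrin genes (8) and all protein-coding genes (8013). Crossing an end makes up 85.7% of pairs at the named LEA genes, 50% at the other LEA genes and at the dehydrins, and 29.5% over all genes.

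Several of these peaks cannot be given to the LEA gene alone. Of the 7, 4 lay within 1000 bp of another protein-coding gene. Among all 5414 peaks that had a gene in reach, 44.6% were within reach of several genes, but that share counts each peak once. A peak in reach of several genes is more readily found through a list of genes. Counted by gene-peak pair, the peak reached 1 gene only in 3 of 7 LEA pairs and in 3000 of all 8013 pairs. Of the 4 peaks near another gene, 3 also overlapped it, a share that was not counted over all peaks. The peak of LEA4-1 also overlapped FdC2, a ferredoxin-like gene, by more bases than it overlapped LEA4-1, so with each peak given to its nearest gene alone LEA4-1 lost its peak and 5 of 10 genes had one (17.3% of all protein-coding genes). The peak of LEA4-5 also overlapped AT5G06770, and the weaker peak of LEA14 also overlapped PIPK11, a phosphatidylinositol phosphate kinase gene. The peak of RAB28 lay beside TRM82 without overlapping it. The peaks of LEA18 and ECP63 and the stronger peak of LEA14 had no other protein-coding gene within 1000 bp. At the edge of the window, the LEA peak farthest from its gene was that of LEA14, within 500 bp, and the nearest peaks left out were those between 1000 and 2000 bp from ECP63 (score 2.02) and from RAB28 (score 1.99).

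The remaining LEA genes were taken from a list of 31 loci based on the published catalogue of Arabidopsis LEA proteins, which also gave the family of each, since the gene table names few of them. Of these 31, 19 had a peak (61.3%, 42.2 to 78.2%, exact interval with the same limit), beside 60% of the 10 named genes and 24.6% of all protein-coding genes. Their highest scores ran from 2.19 to 3.84 with a median of 2.90. Together 25 of 41 LEA genes had a peak (61.0%).

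By family, over the 41 genes, peaks were found at 3 of 3 LEA_1 genes, 3 of 3 LEA_2 genes, 3 of 3 PvLEA18 genes, 11 of 18 LEA_4 genes and 2 of 4 LEA_3 genes. The SMP family had peaks at 2 of 6 genes, the AtM family at 1 of 2 and the LEA_5 family at 0 of 2. These families are small, and differences between them were not tested. In the LEA_4 family, the largest, the 11 genes had highest scores from 2.19 to 3.84 with a median of 3.11.

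**Figure D4:**
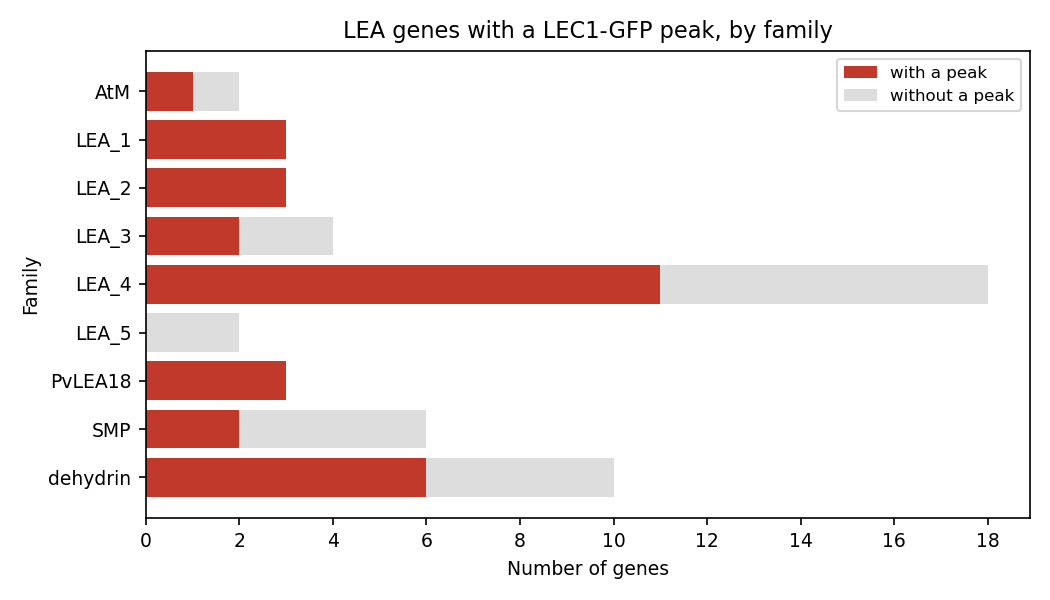
Number of LEA genes with (red) and without (grey) a LEC1-GFP peak in each of 8 families and in the dehydrins; the horizontal axis counts genes. LEA_4 has 11 of 18 genes with a peak, SMP 2 of 6 and LEA_5 0 of 2.

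The highest score among the 31 belonged to AT4G21020 (3.84; chromosome 4, 11227801 to 11228249), the 50th highest peak of the list, followed by AT4G36600 (3.65; chromosome 4, 17263251 to 17263699). At AT3G02480 the score was 3.47, and the same peak was within reach of SAMDC, an enzyme gene of polyamine synthesis. LEA7 (chromosome 1, 19619351 to 19619799) had a score of 3.41, close to that of LEA14. M10, the neighbour of M17, had 2 peaks in reach, with scores of 3.38 and 2.85, both outside M10 and overlapping SSL2. Next came AT2G18340 with 3.29, AT2G33690 with 3.19, AT3G17520 with 3.11, AT3G15670 with 3.01 and AT2G23120 with 2.90. Of the 21 peaks at the 31 genes, 17 lay within reach of several genes (81.0%). The share of all peaks with a gene in reach, 44.6%, again counts each peak once and is not a like measure. By gene-peak pair, the peak reached 1 gene only in 4 of 22 pairs at these genes and in 3000 of all 8013 pairs. This difference was not tested. The peak of AT2G18340 also overlapped AT2G18330, and that of AT2G33690 lay outside it and overlapped PP2CG1. The highest-scoring peaks of AT4G21020, LEA7, AT3G17520 and AT2G23120 were also within reach of other genes. A score above 3 was found at 9 of these 31 genes, at 3 of the 10 named genes and at 2 of the 10 dehydrin genes. The share of all protein-coding genes above that score was not counted, so these counts have no background beside them.

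Dehydrins are LEA proteins of another family, with lysine-rich repeats. Peaks were found at 6 of 10 dehydrin genes (60%), the same number as in the named LEA set. They were ERD10 (highest score 4.47), ERD14 (3.75), LTI30 and XERO1 (a shared peak, 2.90), RAB18 (2.84) and COR47 (2.23), with a median of 2.90 beside 3.07 for the 6 named LEA genes. The peak of COR47 was also within reach of ERD10, and the highest-scoring peak of ERD10 was within reach of AT1G20460. The peak of RAB18 also overlapped PLP3b. At the dehydrins, 4 of 8 gene-peak pairs, made by 6 distinct peaks, crossed a gene end.

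Which of the 10 genes had a peak changed little with the rule that ties a peak to a gene. Most rules, however, could not have removed any of the 6 genes. Each had a peak that crossed a gene end, so changes of the window or overlap kept it. Those peaks scored above the median and were at most 449 bp wide, so the score and width rules kept them too. LEA4-5, LEA14, LEA18, ECP63 and RAB28 had a peak under all 11 rules tried, and EM6 and ECP31 under none. LEA4-1 had one under 10 of the 11. EM1 and M17 had one only when the window was widened to 5000 bp, a width at which 49.6% of all protein-coding genes and 8 of the 10 LEA genes had a peak. With a window of 500 bp, 2000 bp, or 1000 bp without the gene body, 6 of the 10 LEA genes had a peak, against 20.4%, 31.5% and 21.4% of all protein-coding genes. With the peak midpoint required in the window the share of all protein-coding genes was 23.6%, and with at least 100 bp of the peak required it was 20.2%. It was 13.5% with the higher-scoring 50% of the peaks and 23.8% without the widest 5%, and under each of these rules the count of LEA genes was again 6 of 10.

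**Figure D5:**
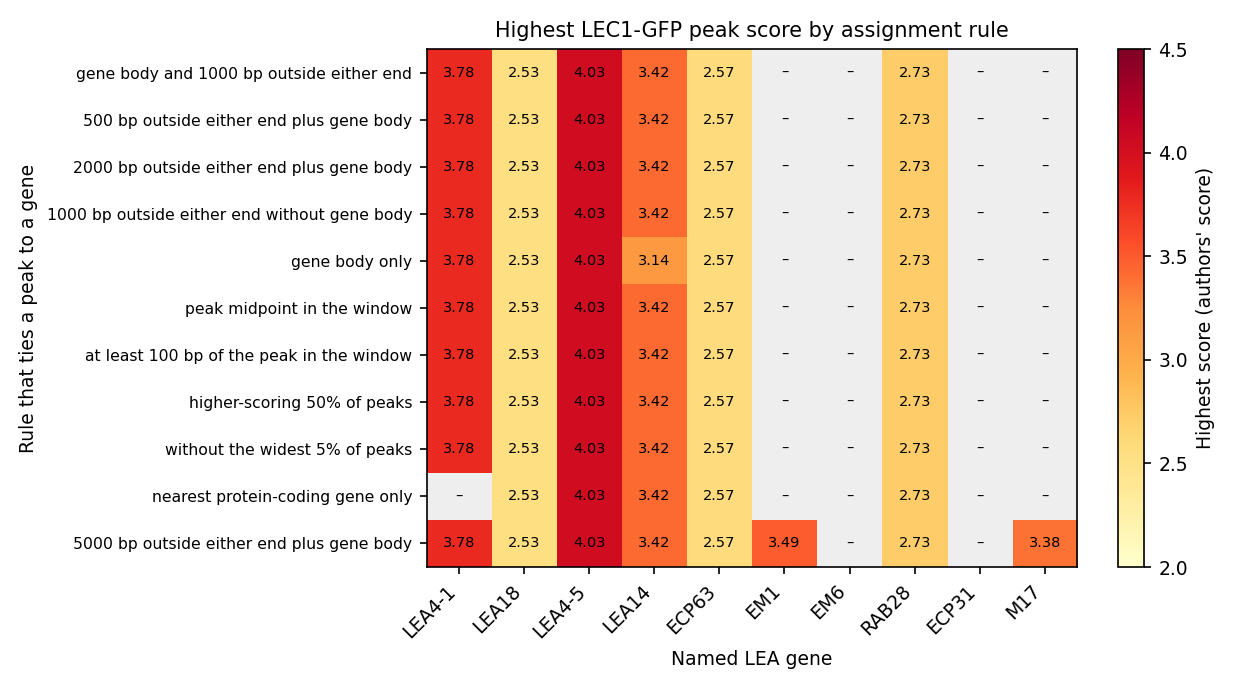
Highest LEC1-GFP peak score (colour and printed value, authors' score) at each of the 10 named LEA genes (columns) under 11 rules for tying a peak to a gene (rows); grey cells with a dash mark genes without a peak. EM6 and ECP31 are empty in every row, and LEA4-1 is empty in 1 row, where each peak counts for its nearest gene.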

How the data were processed

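Chromatin was fixed with formaldehyde and sonicated, and libraries were made from anti-GFP precipitates and from input, per the labels' protocols. Per the submitters' processing notes, SAMtools 0.1.19, Bowtie 0.12.7 and build TAIR10 were used. How peaks were called, at what threshold, whether replicates were pooled and how multiply mapping reads were handled is not stated in any source used here. The deposited values are a score per peak made by the authors, read here only as a rank and a description inside this list. Peak edges lie on a 50 bp grid, and starts were raised by 1 to count from 1. A peak can be placed at a gene end no more finely than that.

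Gene positions and names came from a RefSeq table of TAIR10.1, a build name that differs from the one in the notes, so gene positions are not printed. As a check of the match, 34.0% of peak midpoints lay inside genes as deposited, and 57.7% and 56.9% with the peaks moved by 1000 bp to either side. All 10 names matched 1 locus each.

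Genes and lists were chosen with earlier results of these data known. The 10 genes are named always, up to 10 highest-scoring genes with a peak from each other list, and the neighbours that share a peak. COR15A and COR15B in the closing section, genes named only for the peak nearest to an LEA gene, and the neighbouring pairs were chosen after their values were seen. No test was run. The counting was tested on simulated peaks, with Python 3.11.15, pandas 2.3.3 and scipy 1.17.1. Alternatives covered the window, the overlap, the higher-scoring 50% of the peaks, the widest peaks and the nearest gene. A window of 5000 bp was added after seeing the data. Planned motif counts and distances from transcription starts were not run, since sequence and strand were not used here.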

Additional observations from a re-analysis of the deposited data

How the results depend on the processing

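The count of 6 of 10 LEA genes with a peak was the same under 8 of 10 alternatives, fell to 5 with each peak given to its nearest gene and rose to 8 with a window of 5000 bp, which was added after seeing the data. Under most alternatives a fall was not possible, since a peak crossed an end of each of the 6 genes. Over the same alternatives the other LEA genes ranged from 12 to 24 of 31 and the dehydrins from 4 to 9 of 10. The share of all protein-coding genes moved as well, from 12.5% with the gene body alone to 49.6% with 5000 bp. With the gene body alone, 12 of 31 other LEA genes and 3432 of all protein-coding genes had a peak, and the median highest score of the LEA genes was 2.93. With the 3178 highest-scoring peaks, 3707 of all protein-coding genes had one. With the nearest gene only, that median was 2.73. With 5000 bp, 13603 of all protein-coding genes had a peak and the median was 3.40. No paired analysis was possible because the list has no values per sample. The motif alternatives were not run. Depth and the threshold of the list are unknown, so a missing peak sets no upper limit on binding.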

Other observations

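Of 4 pairs of LEA genes other than dehydrins that were direct neighbours among protein-coding genes, 0 had a peak within 1000 bp at both, 3 had one at 1 of the genes and 1 had one at neither. The split depended on the window: with 2000 bp, 2 of the 4 pairs had a peak at both, 1 at 1 of the genes and 1 at neither. COR15B, which encodes a cold-regulated chloroplast protein, and AT5G53260 then came within reach of the peaks of their neighbours COR15A (score 2.19; chromosome 2, 17712151 to 17712349) and AT5G53270 (score 2.73). COR15A and COR15B are similar copies, and reads of such copies may be hard to place, but whether this bears on their peaks was not tested. M17 had no peak at either width, while M10 had 2 within 1000 bp, both of which lay outside M10 and overlapped its other neighbour SSL2. ECP31 and its neighbour AT3G22490 had none at either width. Among the dehydrins, both neighbouring pairs, COR47 with ERD10 and LTI30 with XERO1, had a peak at both genes and 1 peak in common. AT2G23110 and AT2G23120, near each other but with the gene AT2G23118 counted between them by midpoint, both had peaks and had 1 in common, with a score of 2.10 (chromosome 2, 9841901 to 9841999). These pairs were seen in the data and were not tested. The same counts over all neighbouring pairs of protein-coding genes were not made, so the pairs have no background beside them.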
